A study of Mus musculus with 6 samples.

Results

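Brachyury and 9 other genes of the primitive streak and of WNT signalling were followed in mouse embryonic stem (ES) cells: T (the gene for brachyury), Mixl1, Eomes, Evx1, Cdx1, Sp5, Axin2, Wnt3, Wnt8a and Fgf8. They were chosen by symbol, and all 10 were present among the 23420 gene symbols of the deposited count table. RNA sequencing compared 2 groups of ES cells grown under self-renewing conditions. The first carried a lentivirus for KBP(KK/RR), a mutant of the Kif1-binding protein KBP that the labels call stable (replicates 4, 5 and 6). The second carried a lentivirus for wild-type KBP (replicates 1, 2 and 3). Cells of both groups were stably transduced, and cells without virus were not part of the design. The labels do not say whether replicates came from separate cultures or clones. The p-values set the group difference against the spread between these libraries. If the replicates of a group share 1 transduced pool, an effect of the mutant and a difference between pools cannot be told apart.

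In the embryo, WNT ligands stabilise beta-catenin, which then acts with TCF/LEF factors at target genes. At the posterior side of the epiblast this signal induces the primitive streak, where cells that form mesoderm and endoderm arise. T, Mixl1, Eomes and Evx1 are transcription factor genes of the streak. Axin2 and Sp5 are direct WNT targets, and Cdx1 is a WNT-responsive homeobox gene. Wnt3, Wnt8a and Fgf8 encode secreted ligands made there. Self-renewing ES cultures are known to hold small numbers of cells with brachyury.

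The promoters of T, Sp5 and Axin2 are shown because all 3 genes are known WNT targets, and because T and Sp5 held the TCF/LEF core motif CTTTGA. The search covered both strands. Each sequence is the 250 bases before the transcription start in the RefSeq promoter table on GRCm38.p6, plus strand, in lower case with that motif in capitals.
T, chr17:8434173-8434422: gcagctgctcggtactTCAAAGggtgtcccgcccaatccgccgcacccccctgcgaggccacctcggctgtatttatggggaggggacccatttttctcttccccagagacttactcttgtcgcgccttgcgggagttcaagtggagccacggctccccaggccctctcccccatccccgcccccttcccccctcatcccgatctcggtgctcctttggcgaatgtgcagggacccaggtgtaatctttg
Sp5, chr2:70474673-70474922: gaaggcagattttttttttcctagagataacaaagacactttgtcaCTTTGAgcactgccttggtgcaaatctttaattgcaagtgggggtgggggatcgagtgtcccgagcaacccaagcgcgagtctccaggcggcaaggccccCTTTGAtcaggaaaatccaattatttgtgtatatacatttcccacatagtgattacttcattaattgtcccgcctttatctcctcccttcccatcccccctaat
Axin2, chr11:108920099-108920348: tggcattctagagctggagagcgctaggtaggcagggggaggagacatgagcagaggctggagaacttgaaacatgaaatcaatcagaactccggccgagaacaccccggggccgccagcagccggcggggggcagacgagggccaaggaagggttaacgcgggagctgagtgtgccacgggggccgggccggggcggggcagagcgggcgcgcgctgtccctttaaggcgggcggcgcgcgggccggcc

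The T window held 1 match, on the opposite strand, 234 to 229 bases before the start. The Sp5 window held 2 matches on the gene's own strand, at 204 to 199 and at 104 to 99 bases before the start. Of the 32851 promoters in the table, 13.8% held the motif in the same 250 bases. A promoter was listed for 6 of the 10 genes, and the motif stood in 2 of them, T and Sp5. The T-box motif TCACAC, searched likewise and free of overlap with the first, stood in the Evx1 promoter alone among the 6, and in 12.3% of all promoters. A match describes the letters of the window and says nothing of binding. Mixl1, Cdx1, Wnt8a and Fgf8 had no entry.

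Libraries held between 24131743 and 32160411 counts. In a principal component analysis, component 1 (31.1% of the variance) separated the groups, and component 2 (20.8%) set wild-type KBP replicate 3 apart. The labelled cell type was checked against 10 ES cell genes, whose summed level ran from 6737 to 6978 CPM (counts per 1000000 library counts) in KBP(KK/RR) libraries and from 6881 to 6982 CPM in wild-type KBP libraries. Of these 10, Tfcp2l1, a transcription factor gene of naive pluripotency, fell, with 271 ± 19.3 CPM in KBP(KK/RR) cells and 332 ± 9.71 CPM in wild-type KBP cells (log2 fold change -0.29, edgeR adjusted p = 8.28e-04). The groups did not overlap for 5 of the 10, where 22.4% of all tested genes showed no overlap. Besides Tfcp2l1, Esrrb was lower (677 ± 14.0 CPM in KBP(KK/RR) cells and 722 ± 22.2 CPM in wild-type KBP cells). Klf4 was lower too (307 ± 8.30 CPM in KBP(KK/RR) cells and 327 ± 3.36 CPM in wild-type KBP cells). Nanog was higher (334 ± 9.61 CPM in KBP(KK/RR) cells and 313 ± 9.93 CPM in wild-type KBP cells). So was Dppa5a (1276 ± 26.8 CPM in KBP(KK/RR) cells and 1224 ± 26.2 CPM in wild-type KBP cells). None of Esrrb, Klf4, Nanog and Dppa5a was called. The KBP gene averaged 56.6 ± 2.88 CPM in KBP(KK/RR) cells and 48.3 ± 1.30 CPM in wild-type KBP cells (SD, n = 3 each). It was called higher (log2 fold change 0.23, edgeR adjusted p = 0.0133), and its count does not separate the virus from the cell's own gene.

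T was the gene of the 10 that was called higher in KBP(KK/RR) cells. It had 6.02, 5.88 and 6.63 CPM in KBP(KK/RR) replicates 4, 5 and 6, against 4.56, 4.77 and 3.79 CPM in wild-type KBP replicates 1, 2 and 3. Every KBP(KK/RR) library thus lay above every wild-type KBP library. Its fold was 1.40 (95% interval 1.20 to 1.65), a log2 fold change of 0.49 (SE 0.11, edgeR's quasi-likelihood test with Benjamini-Hochberg adjustment over 14340 genes, adjusted p = 0.0168). In bulk RNA, a larger number of T-expressing cells and more T RNA per cell cannot be told apart. T lies at chr17:8434423-8442496 on the plus strand (GRCm38), with 8 exons in its longest annotated transcript.

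Across the 10 genes, 1 was called higher, where 1.05% of all tested genes were called higher and 3.12% were called in either direction. The log2 fold change was positive for 9 of the 10, against 49.2% of all tested genes, and its median was 0.21 over the 10 and 0.00 over all genes. Groups did not overlap for 5 of the 10, all higher in KBP(KK/RR) cells (T, Sp5, Wnt8a, Evx1 and Fgf8), where 11.8% of all tested genes did so in that direction and 22.4% in either. An unadjusted p under 0.05 was reached by 4 (T, Sp5, Evx1 and Fgf8), where 8.32% of all tested genes reached it on the higher side. The 10 genes were picked with earlier results of these data known, so these counts describe them and are no test of the group.

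**Figure D1:**
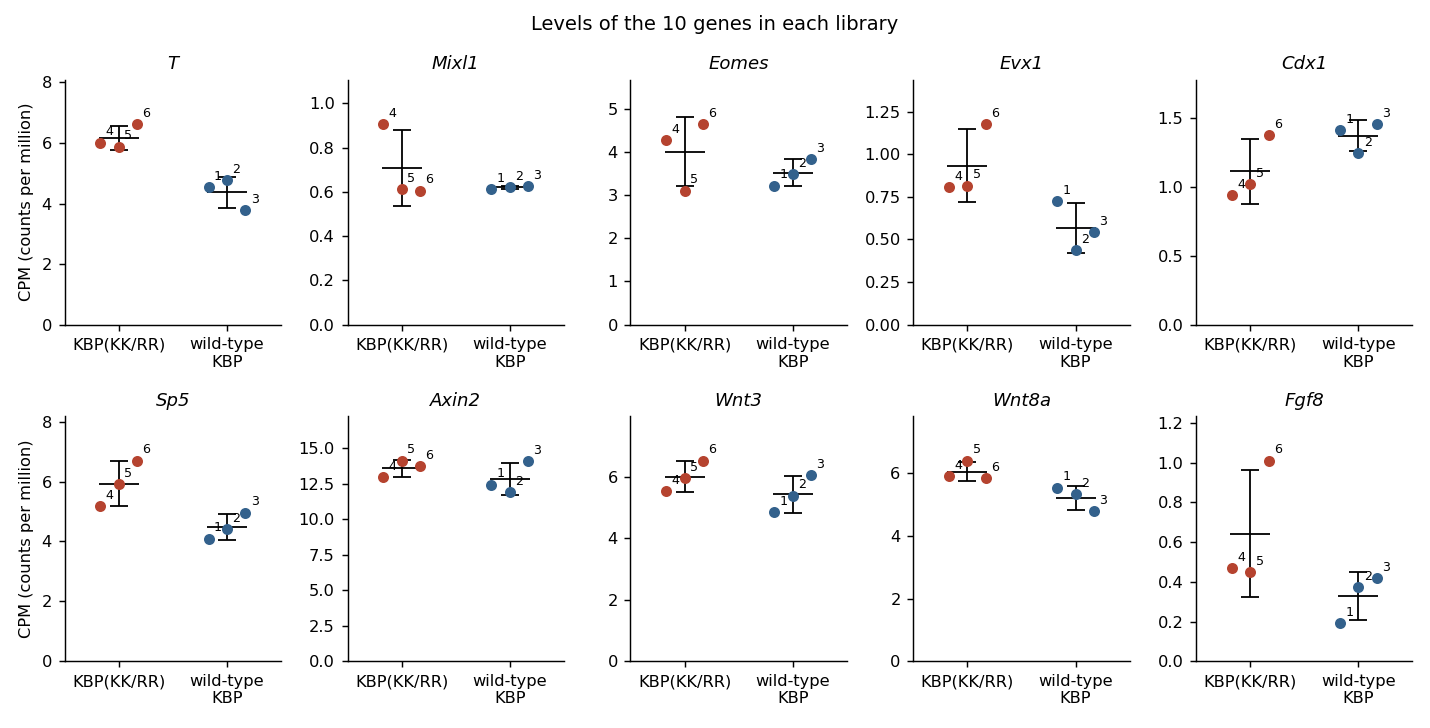
CPM of each of the 10 genes (y axis, from 0, with its own scale per panel) in KBP(KK/RR) libraries (red, left) and wild-type KBP libraries (blue, right). Points are libraries marked with their replicate number, horizontal lines are means and bars are SD (n = 3). In the T panel the KBP(KK/RR) libraries lie between 5.88 and 6.63 CPM, above all wild-type KBP libraries.

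Among the streak transcription factors, the other 3 genes were not called. Eomes, a T-box gene needed for endoderm and mesoderm, had 4.27, 3.10 and 4.64 CPM in KBP(KK/RR) replicates 4, 5 and 6, against 3.22, 3.49 and 3.84 CPM in wild-type KBP replicates 1, 2 and 3. KBP(KK/RR) replicate 5 was the lowest of the 6 libraries and replicate 6 the highest, so the groups overlapped. The fold was 1.15 (95% interval 0.944 to 1.41, edgeR adjusted p = 0.451). The coefficient of variation of Eomes was 20.1% in KBP(KK/RR) libraries, where counting alone gives 9.38%, and 8.86% in wild-type KBP libraries, where counting alone gives 10.2%. Eomes lies at chr9:118478212-118486132 on the plus strand.

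Evx1, a homeobox gene of the posterior streak, was counted 24, 20 and 35 times in KBP(KK/RR) replicates 4, 5 and 6, against 19, 14 and 13 times in wild-type KBP replicates 1, 2 and 3. The levels were 0.807, 0.816 and 1.18 CPM in KBP(KK/RR) libraries, against 0.727, 0.436 and 0.542 CPM in wild-type KBP libraries. The groups did not overlap, with KBP(KK/RR) replicate 6 well above the rest. The fold was 1.67 (95% interval 1.12 to 2.50), with an unadjusted p = 0.0145 and an edgeR adjusted p = 0.155. Evx1 lies at chr6:52313498-52318378 on the plus strand and shares 1335 bases with its antisense gene Evx1os, listed in the files as 5730457N03Rik. The antisense gene had 15 counts over the KBP(KK/RR) libraries and 25 over the wild-type KBP libraries. The strand setting of the counting is not given in the sources used here, so reads of the shared stretch cannot be assigned.

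Mixl1, a paired-type homeobox gene of the streak, was at the edge of what these libraries could measure. It had 27, 15 and 18 counts in KBP(KK/RR) replicates 4, 5 and 6, against 16, 20 and 15 in wild-type KBP replicates 1, 2 and 3. The levels were 0.907, 0.612 and 0.606 CPM in KBP(KK/RR) libraries, against 0.612, 0.623 and 0.625 CPM in wild-type KBP libraries. KBP(KK/RR) replicate 4 alone stood above the others, and the groups overlapped. Its fold was 1.15 with a 95% interval from 0.771 to 1.71 (edgeR adjusted p = 0.743), so the counts are compatible with folds in either direction within those bounds. Mixl1 lies at chr1:180693043-180697034 on the minus strand.

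None of the 3 WNT-responsive genes was called. Sp5, which encodes a zinc finger repressor of the Sp family, had 5.18, 5.92 and 6.70 CPM in KBP(KK/RR) replicates 4, 5 and 6, against 4.10, 4.42 and 4.96 CPM in wild-type KBP replicates 1, 2 and 3. The groups did not overlap, and the lowest KBP(KK/RR) library lay just above the highest wild-type KBP library. The fold was 1.32 (95% interval 1.12 to 1.57; log2 fold change 0.40, SE 0.12), and the edgeR adjusted p of 0.0611 missed the threshold of 0.05. It passed with upper-quartile scaling (0.0487), with no filter on low counts (0.0148), after correction for transcript length and GC content (0.00994) and when KBP(KK/RR) replicate 4 was dropped (0.0162). Without KBP(KK/RR) replicate 6 its adjusted p was 0.329. Sp5, whose promoter is shown above, lies at chr2:70474923-70477729 on the plus strand.

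Axin2, a scaffold of the beta-catenin destruction complex that WNT signalling induces as a negative feedback, was the most deeply counted of the 10 with 2185 counts over the 6 libraries. It had 12.9, 14.1 and 13.7 CPM in KBP(KK/RR) replicates 4, 5 and 6, against 12.4, 11.9 and 14.1 CPM in wild-type KBP replicates 1, 2 and 3. Wild-type KBP replicate 3 was as high as the KBP(KK/RR) libraries, and the groups overlapped. Its fold was 1.06, with a 95% interval from 0.952 to 1.19 (edgeR adjusted p = 0.570). That interval is the narrowest of the 10 and does not reach the fold fitted for T (1.40) or Sp5 (1.32), although the differences between genes were not tested. Axin2 lies at chr11:108920349-108950783 on the plus strand.

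Cdx1, a caudal-type homeobox gene that patterns the anteroposterior axis, was the gene of the 10 with a negative log2 fold change. It had 0.941, 1.02 and 1.38 CPM in KBP(KK/RR) replicates 4, 5 and 6, against 1.42, 1.25 and 1.46 CPM in wild-type KBP replicates 1, 2 and 3. KBP(KK/RR) replicate 6 fell inside the wild-type KBP range, so the groups overlapped. It was -0.29 with an SE of 0.21 (edgeR adjusted p = 0.498). Over both groups 206 counts stood behind it. Cdx1 lies at chr18:61018862-61036199 on the minus strand.

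The secreted ligands showed small differences or few counts. Wnt8a, a ligand of the posterior epiblast and streak, had 5.91, 6.41 and 5.86 CPM in KBP(KK/RR) replicates 4, 5 and 6, against 5.55, 5.33 and 4.80 CPM in wild-type KBP replicates 1, 2 and 3. The groups did not overlap, though the gap between them was small. The fold was 1.15 (95% interval 0.995 to 1.34, unadjusted p = 0.0578 and edgeR adjusted p = 0.288). Wnt3, the ligand that streak formation requires, had 5.54, 5.96 and 6.53 CPM in KBP(KK/RR) replicates 4, 5 and 6, against 4.86, 5.39 and 6.05 CPM in wild-type KBP replicates 1, 2 and 3. Its groups overlapped, and the fold was 1.11 (95% interval 0.950 to 1.30, edgeR adjusted p = 0.482). Wnt8a lies at chr18:34542313-34548273 and Wnt3 at chr11:103774150-103817957, both on the plus strand.

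Fgf8, the streak's fibroblast growth factor, which cells need to migrate away from it, had the fewest counts of the 10. It was counted 14, 11 and 30 times in KBP(KK/RR) replicates 4, 5 and 6, against 5, 12 and 10 times in wild-type KBP replicates 1, 2 and 3. The levels were 0.470, 0.449 and 1.01 CPM in KBP(KK/RR) libraries, against 0.191, 0.374 and 0.417 CPM in wild-type KBP libraries. KBP(KK/RR) replicate 6 was far above its own group, while the other 2 KBP(KK/RR) libraries lay just above the wild-type KBP range. The fold was 1.98 with a wide 95% interval of 1.14 to 3.44 (unadjusted p = 0.0179 and edgeR adjusted p = 0.170). Without KBP(KK/RR) replicate 6 the log2 fold change was 0.48 in place of 0.98 (edgeR adjusted p = 0.672). Fgf8 lies at chr19:45736798-45742915 on the minus strand.

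**Figure D2:**
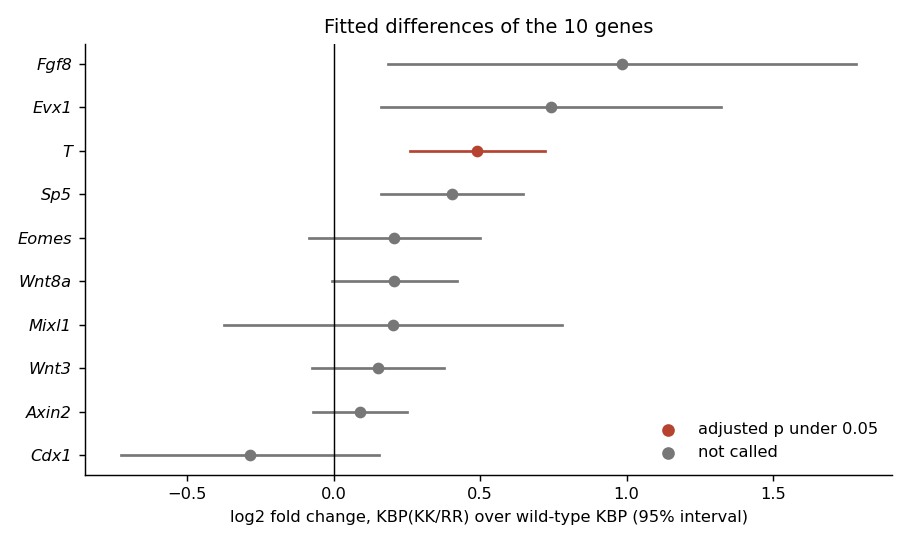
Fitted log2 fold change of KBP(KK/RR) over wild-type KBP (x axis) for the 10 genes, ordered by size, with 95% intervals from the edgeR fit (n = 3 libraries per group). T is called (red). The intervals of 6 genes include 0, and those of Fgf8 and Evx1 are the widest.

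Library KBP(KK/RR) replicate 6 held the highest CPM for 6 of the 10 genes. KBP(KK/RR) replicate 5 held it for 2, KBP(KK/RR) replicate 4 for 1 and wild-type KBP replicate 3 for 1. T no longer passed when KBP(KK/RR) replicate 6 was dropped (log2 fold change 0.43, edgeR adjusted p = 0.121) or when wild-type KBP replicate 3 was (0.41, adjusted p = 0.0719), the library that component 2 set apart. With any other library left out the log2 fold change of T ran from 0.51 to 0.57 and the call was made. The direction of T, Sp5, Wnt8a, Evx1 and Fgf8 was positive in every such omission, which follows from their groups not overlapping. Eomes, Axin2 and Wnt3, whose groups overlapped, also stayed positive in each. Their lowest log2 fold changes with 1 library left out were 0.089, 0.039 and 0.081.

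**Figure D3:**
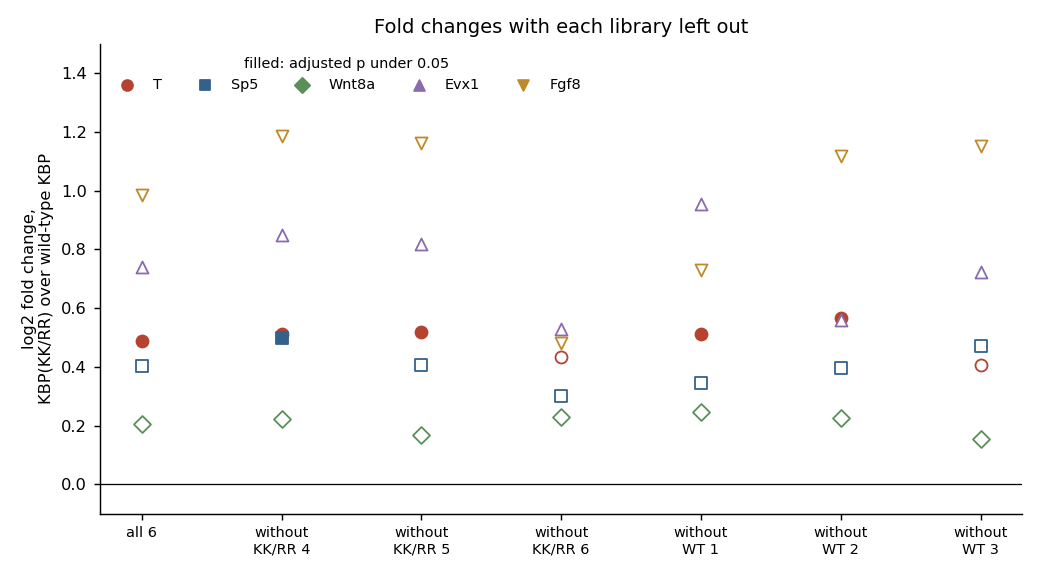
Log2 fold change of KBP(KK/RR) over wild-type KBP (y axis) for the 5 genes whose groups did not overlap, with all 6 libraries and with each library left out (x axis). Filled symbols have an edgeR adjusted p under 0.05. T is filled except without KBP(KK/RR) replicate 6 or wild-type KBP replicate 3, Sp5 is filled only without KBP(KK/RR) replicate 4, and Fgf8 is at 0.48 without KBP(KK/RR) replicate 6.

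All 10 genes were expressed at low levels. Scaled per kilobase of the longest annotated transcript (RPKM, which is CPM per kilobase), T had a level of 3.02 ± 0.196 in KBP(KK/RR) cells and 2.14 ± 0.250 in wild-type KBP cells (SD, n = 3 each). The pluripotency gene Pou5f1 had 1053 RPKM in KBP(KK/RR) cells and 1065 RPKM in wild-type KBP cells on the same scale. Over all 6 libraries the order of mean levels was Wnt8a (3.23 RPKM), Axin2 (3.10), T (2.58), Sp5 (2.48), Wnt3 (1.86), Eomes (1.06), Cdx1 (0.711), Fgf8 (0.415), Mixl1 (0.290) and Evx1 (0.261). Neighbours in this order had overlapping ranges over the 6 libraries, except that Wnt3 lay above Eomes and Eomes above Cdx1 in every library. With the median transcript length in place of the longest, Axin2 (12.6 RPKM) and T (6.93 RPKM) moved to the top, and the ranges of Wnt3 and Eomes overlapped.

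**Figure D4:**
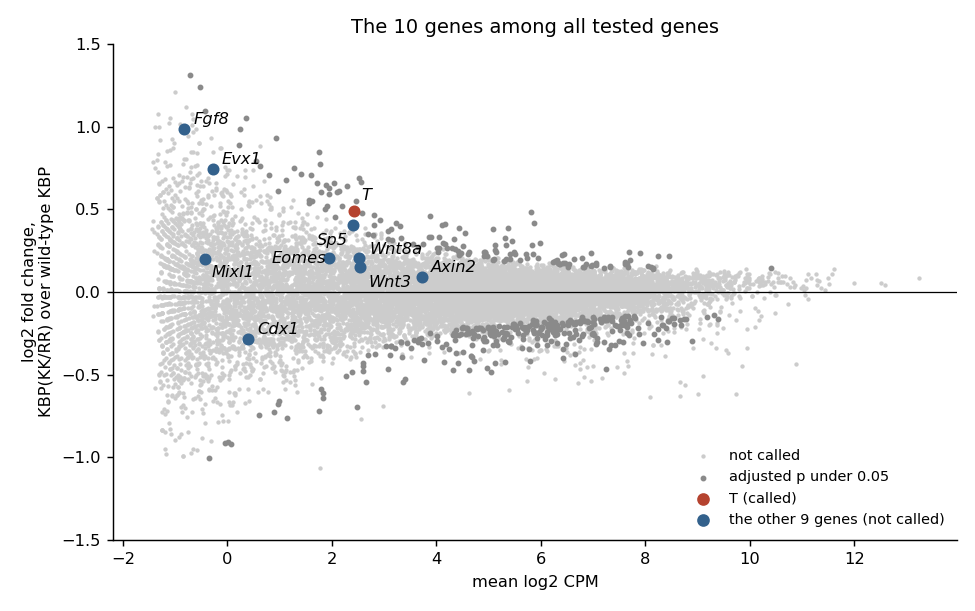
Log2 fold change of KBP(KK/RR) over wild-type KBP (y axis) against mean log2 CPM (x axis) for the 14340 tested genes, with 3 genes outside the plotted range. Dark grey points are called, T is red and the other 9 genes are blue. Fgf8, Evx1 and Mixl1 sit at the low-count end, where uncalled genes also scatter widely.

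At the level of T, within 0.5 log2 CPM either way, 19 of 1198 tested genes were called higher (1.59%), and at the level of Fgf8 5 of 1060 were (0.472%). The median standard error of the log2 fold change was 0.11 among the genes near T and 0.33 among those near Fgf8. A difference of the size fitted for Evx1 or Fgf8 was therefore measured with much less precision than that of T.

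The 5 genes whose centred log2 CPM profile over the 6 libraries lay closest to that of T, ranked over the 11834 genes whose mean log2 CPM reached 1, were Olig3, Magohb, Fmr1nb, D630023F18Rik and Capn3. Their root mean square difference from T ran from 0.066 to 0.084 log2 units. Olig3, a basic helix-loop-helix gene, had 2.42, 2.41 and 2.83 CPM in KBP(KK/RR) replicates 4, 5 and 6, against 1.84, 2.12 and 1.71 CPM in wild-type KBP replicates 1, 2 and 3. Like T it was highest in KBP(KK/RR) replicate 6 and lowest in wild-type KBP replicate 3. Of these 5 genes, Fmr1nb and D630023F18Rik were called higher (edgeR adjusted p = 0.0291 and 0.00572), where 1.05% of all tested genes were. The 5 were picked for a profile close to that of T, which is higher in KBP(KK/RR) cells. Their direction, these calls and the order of libraries shared with T follow from that choice and are no separate result. Among the other genes of the set, Wnt8a ranked 189 by this measure, Sp5 403, Wnt3 3300, Eomes 4611 and Axin2 5187. Mixl1, Evx1, Cdx1 and Fgf8 were below the level needed for a rank.

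Genes of the WNT pathway upstream of its targets were read as lists. Counts below are of tested genes from lists chosen with earlier results of these data known, and the background stays 1.05% higher and 2.07% lower. An unadjusted p under 0.05 was reached by 18.6% of all tested genes in either direction, and by 8.32% on the higher side. Of 12 genes for other WNT ligands and their secretion, none was called by edgeR or, among the 2 with an adjusted p, by DESeq2. In that list 1 had an unadjusted p under 0.05. It was Porcn, the acyltransferase that lipid-modifies WNT proteins, with 27.6 ± 2.86 CPM in KBP(KK/RR) cells and 32.3 ± 0.597 CPM in wild-type KBP cells (log2 fold change -0.23, edgeR adjusted p = 0.0506).

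Of 20 receptor and R-spondin genes, 1 fell: Fzd5, a Frizzled receptor gene, averaged 184 ± 5.66 CPM in KBP(KK/RR) cells and 219 ± 7.04 CPM in wild-type KBP cells (SD, n = 3 each). Its groups did not overlap (log2 fold change -0.25, SE 0.04, edgeR adjusted p = 0.00103). Of 12 WNT antagonist genes, 2 fell, both for secreted Frizzled-related proteins that bind WNT ligands. Sfrp1 averaged 92.3 ± 1.76 CPM in KBP(KK/RR) cells and 108 ± 1.38 CPM in wild-type KBP cells (log2 fold change -0.23, edgeR adjusted p = 0.00324). Sfrp4 averaged 10.7 ± 0.458 CPM in KBP(KK/RR) cells and 13.0 ± 0.497 CPM in wild-type KBP cells (log2 fold change -0.29, edgeR adjusted p = 0.0379), and each omission of 1 library ended its call (0.0524 to 0.202), as did DESeq2 (0.0943) and upper-quartile scaling (0.0521).

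Of 13 destruction complex genes, 1 fell: Csnk1e, for casein kinase 1 epsilon, averaged 75.0 ± 2.58 CPM in KBP(KK/RR) cells and 87.8 ± 2.25 CPM in wild-type KBP cells (log2 fold change -0.23, edgeR adjusted p = 0.00655). Of 17 transducer and TCF/LEF genes, 2 rose. Lef1, a TCF/LEF factor that is itself a WNT target, had 18.5, 18.6 and 20.2 CPM in KBP(KK/RR) replicates 4, 5 and 6, against 14.7, 15.4 and 16.6 CPM in wild-type KBP replicates 1, 2 and 3. The groups did not overlap (log2 fold change 0.30, SE 0.07, edgeR adjusted p = 0.0188). Tcf7, a related factor, averaged 42.8 ± 2.51 CPM in KBP(KK/RR) cells and 37.4 ± 0.224 CPM in wild-type KBP cells (log2 fold change 0.20, edgeR adjusted p = 0.0457). Lef1 missed the threshold when 1 of 3 libraries was dropped, wild-type KBP 1, wild-type KBP 2 or KBP(KK/RR) 6 (adjusted p 0.0704 to 0.139). Tcf7 missed it in every omission of 1 library except that of KBP(KK/RR) 4 (0.0794 to 0.275), and also under DESeq2 (0.0776). Ctnnb1, for beta-catenin itself, averaged 1028 ± 7.87 CPM in KBP(KK/RR) cells and 977 ± 25.8 CPM in wild-type KBP cells, which was not called (log2 fold change 0.07, edgeR adjusted p = 0.278). Ctnnb1 is named here after its values were seen.

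Among 18 other WNT target genes, 2 rose and 1 fell. The risers were again Lef1 and Tcf7. Bmp4, a growth factor gene, fell, with 43.1, 45.5 and 42.9 CPM in KBP(KK/RR) replicates 4, 5 and 6, against 53.1, 55.6 and 57.9 CPM in wild-type KBP replicates 1, 2 and 3 (log2 fold change -0.34, SE 0.05, edgeR adjusted p = 4.27e-04). The median log2 fold change of this list was -0.01, against 0.00 over all tested genes.

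Of 20 other tested genes of the streak, mesoderm and endoderm, none was called higher by edgeR or, among the 5 with an adjusted p, by DESeq2, and 2 had an unadjusted p under 0.05 on that side. In this list 3 fell and the median log2 fold change was 0.00. The fallers were Bmp4, the BMP antagonist gene Chrd (8.16 ± 0.397 CPM in KBP(KK/RR) cells and 10.3 ± 0.368 CPM in wild-type KBP cells, log2 fold change -0.34) and the T-box gene Tbx3 (141 ± 3.66 CPM in KBP(KK/RR) cells and 159 ± 2.41 CPM in wild-type KBP cells, log2 fold change -0.17). Their edgeR adjusted p were 0.0271 for Chrd and 0.0221 for Tbx3. Chrd missed the threshold when wild-type KBP 2, wild-type KBP 3 or KBP(KK/RR) 6 was dropped (0.0720 to 0.141), and also under DESeq2 (0.0678). Tbx3 missed it on dropping either of wild-type KBP 1 and 2 or either of KBP(KK/RR) 5 and 6 (0.0543 to 0.124). Noto, a notochord homeobox gene, had 0 counts in all 6 libraries.

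Within the T-box family, 7 other genes were tested. Tbx4 rose, with 6.02, 4.98 and 4.85 CPM in KBP(KK/RR) replicates 4, 5 and 6, against 3.37, 3.68 and 4.04 CPM in wild-type KBP replicates 1, 2 and 3 (log2 fold change 0.52, SE 0.12, edgeR adjusted p = 0.0204). Tbx3 fell, as above. Tbx4 missed the threshold when wild-type KBP 1, wild-type KBP 2 or KBP(KK/RR) 4 was dropped (0.0645 to 0.0658). Of 11 other FGF ligand genes, none was called by edgeR or, among the 4 with an adjusted p, by DESeq2, and 2 had an unadjusted p under 0.05. The smallest p was that of Fgf5, a ligand of the primed epiblast, with 1.61 ± 0.359 CPM in KBP(KK/RR) cells and 1.03 ± 0.191 CPM in wild-type KBP cells (log2 fold change 0.64, edgeR adjusted p = 0.113).

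**Figure D5:**
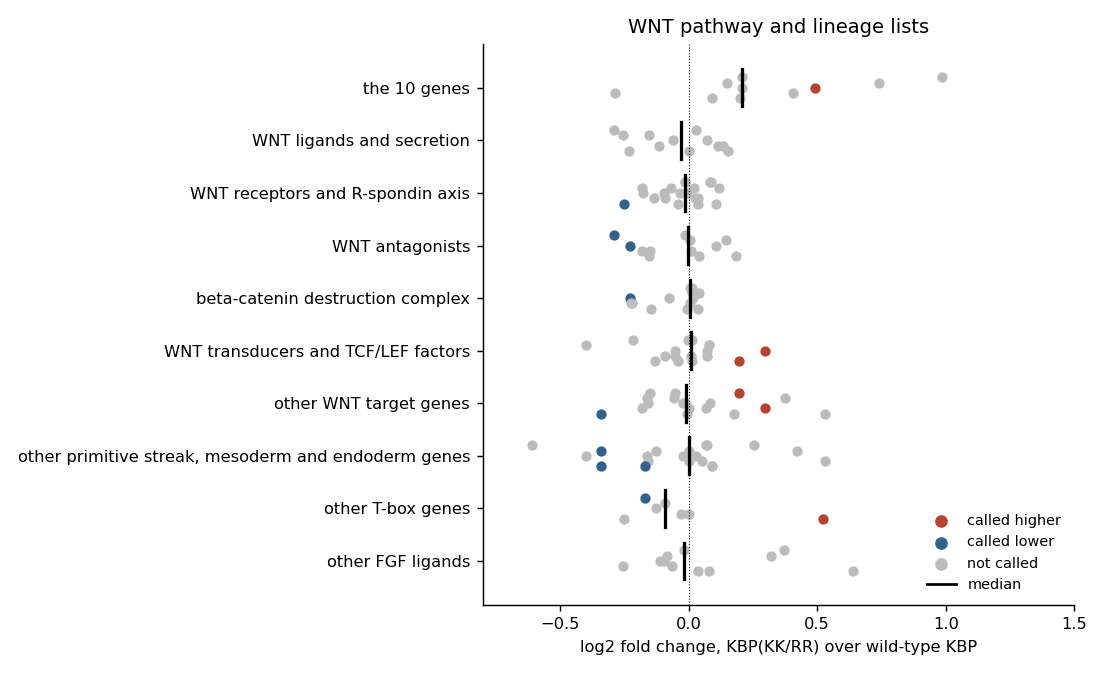
Log2 fold change of KBP(KK/RR) over wild-type KBP (x axis) of each tested gene in the 10-gene set and in 9 lists of pathway and lineage genes (rows). Red points are called higher, blue points called lower, grey points not called, and black bars are medians. The median is 0.21 for the 10 genes and lies between -0.09 and 0.01 for the 9 lists.

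Markers of other cell types were read in the same libraries. Of 7 tested mesoderm markers, 1 was called, Pdgfra (lower), and their summed level ran from 11.5 to 13.1 CPM in KBP(KK/RR) libraries and from 12.1 to 14.6 CPM in wild-type KBP libraries. Of the 6 definitive endoderm markers 3 were tested, and none was called by edgeR or reached an unadjusted p under 0.05, while DESeq2 gave none an adjusted p. Their sum ran from 9.72 to 10.2 CPM in KBP(KK/RR) libraries and from 8.76 to 9.84 CPM in wild-type KBP libraries. Levels within these lists differed widely. Msgn1 (mesoderm) and Cer1 (endoderm) stayed under 0.1 CPM in every library. The endoderm marker Hhex averaged 7.34 ± 0.351 CPM in KBP(KK/RR) cells and 6.87 ± 0.935 CPM in wild-type KBP cells. Of the mesoderm markers, Kdr averaged 4.53 ± 0.509 CPM in KBP(KK/RR) cells and 4.92 ± 1.01 CPM in wild-type KBP cells. Mesp2 averaged 3.31 ± 0.235 CPM in KBP(KK/RR) cells and 3.13 ± 0.376 CPM in wild-type KBP cells. None of these 3 was called, and their groups overlapped. The endoderm marker Cxcr4 was higher without overlap of the groups (1.53 ± 0.311 CPM in KBP(KK/RR) cells and 1.25 ± 0.0953 CPM in wild-type KBP cells). The gap was slight, with 1.34 and 1.35 CPM in KBP(KK/RR) replicates 4 and 5 against 1.33 CPM in wild-type KBP replicate 3. KBP(KK/RR) replicate 6 stood at 1.88 CPM. Cxcr4 was not called (edgeR adjusted p = 0.464), and 22.4% of all tested genes showed no overlap. Hhex, Cxcr4, Kdr and Mesp2 are named after their values were seen. The same holds for Esrrb, Klf4 and Dppa5a above and for Sox3, Lama1 and Hnf4a below.

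Of 7 tested markers of the primed epiblast, the stage from which the streak arises, 5 were called higher by edgeR. They were Otx2 (adjusted p = 8.28e-04), Pou3f1 (0.0433), Dnmt3b (0.0203), Zic2 (8.68e-04) and Lef1 (0.0188). Except for Lef1, the marker calls in this paragraph were not read with a library left out. Lef1 is also counted in lists above, and Fgf5, as above, was higher without a call. Sox3 was not called and its groups overlapped (5.63 ± 0.259 CPM in KBP(KK/RR) cells and 5.66 ± 0.142 CPM in wild-type KBP cells). The summed level ran from 306 to 307 CPM in KBP(KK/RR) libraries and from 258 to 269 CPM in wild-type KBP libraries. Dnmt3b made up most of it, with 212 ± 2.99 CPM in KBP(KK/RR) cells and 189 ± 4.54 CPM in wild-type KBP cells. Of 11 primitive endoderm markers, 3 were called lower (edgeR adjusted p = 0.0342 for Pdgfra, 0.0170 for Col4a1 and 0.0473 for Col4a2). The whole list had a sum of 420 to 481 CPM in KBP(KK/RR) libraries and 499 to 598 CPM in wild-type KBP libraries. Lama1, the largest part of that sum, was not called (161 ± 18.8 CPM in KBP(KK/RR) cells and 227 ± 27.6 CPM in wild-type KBP cells, edgeR adjusted p = 0.169). Hnf4a went the other way without overlap of the groups, on 62 counts in KBP(KK/RR) libraries and 30 in wild-type KBP libraries. It was not called (log2 fold change 1.01, edgeR adjusted p = 0.0840). Of 8 trophectoderm markers, a list that also holds Eomes, Tfap2c rose, with a sum of 102 to 106 CPM in KBP(KK/RR) libraries and 92.2 to 101 CPM in wild-type KBP libraries. Ncam1 fell among 6 neural markers, whose sum was 199 to 206 CPM in KBP(KK/RR) libraries and 205 to 210 CPM in wild-type KBP libraries. Tagln rose among 6 fibroblast or feeder markers, whose sum was 304 to 320 CPM in KBP(KK/RR) libraries and 302 to 328 CPM in wild-type KBP libraries, with Lum under 0.1 CPM in every library. DESeq2 called 4 of the 5 primed epiblast markers to which it gave an adjusted p, 2 of 5 for primitive endoderm, 1 of 3 for trophectoderm, 1 of 4 for neural and 0 of 3 for fibroblast or feeder markers. Among the ES cell genes it called 1 of 10, and it gave no mesoderm marker an adjusted p. Over all genes DESeq2 called 70 higher and 228 lower. How many genes it gave an adjusted p was not kept, so no share over all genes stands beside these marker counts. The part of these markers in the T difference was not tested, nor was that of the ES cell genes.

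Genes next to the 10 on their chromosomes were also read. Of 21 neighbouring or overlapping genes in the table, 12 were tested. None was called by edgeR or, among the 6 with an adjusted p, by DESeq2. An unadjusted p under 0.05 was reached by 2, both lower in KBP(KK/RR) cells (Golga4 beside Eomes and Fam13b beside Wnt8a). Over all tested genes 18.6% reached it in either direction. T2, which ends 10910 bases before T on the same strand, had 13 counts over the KBP(KK/RR) libraries and 20 over the wild-type KBP libraries. Pde10a, on the other side of T, averaged 1.58 ± 0.197 CPM in KBP(KK/RR) cells and 1.84 ± 0.216 CPM in wild-type KBP cells (log2 fold change -0.20, edgeR adjusted p = 0.591).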

How the data were processed

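RNA sequencing of mouse ES cells (6 libraries) was analysed from raw read counts per gene symbol, as the authors deposited them. Libraries were ScriptSeq v2 after RiboZero removal of ribosomal RNA, per the labels' protocols. The submitters' processing notes name bcl2fastq, TopHat, HTSeq and DESeq2 with no versions, and mm10 and GRCm38 as builds. Which annotation, strand setting and filters the counting used is not given in the sources used here. A second table, of normalized values, was not used.

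All genes passing filterByExpr (14340 of 23420, all 10 members among them) were tested with edgeR 4.0.16 under R 4.3.3: TMM, robust quasi-likelihood fit, group as the term, and Benjamini-Hochberg adjusted p under 0.05 called. A positive log2 fold change means higher in KBP(KK/RR) cells, and SE is the absolute log2 fold change over the square root of F. CPM uses TMM-scaled totals, and log2 CPM a prior count of 2. Positions, transcript lengths and GC content came from GENCODE M21 on GRCm38, with 23014 symbols matched, and promoters from RefSeq. Replicate pairs differed by 2.70 to 7.17 in chi-square per degree of freedom, so none was merged.

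Members and lists were chosen with earlier results of these data known. Genes named are the 10 members, list members that were called or, where none was, the member with the smallest p, the 5 genes most like T, neighbours, and identity genes. Markers were read as lists. On simulated counts for this comparison (14340 genes, 200 of them changed), the procedure found 47.8% of 1.2-fold, 77.6% of 1.5-fold and 93.9% of 2-fold changes. These were 32, 52 and 62 changed genes, and 21 unchanged genes were called beside them. The changed genes were drawn from all expression levels, so these shares are not those at the level of the 10. Alternatives were DESeq2 1.42.0, limma-voom (limma 3.58.1), other scalings and filters, a length and GC trend removed (splines, 5 degrees of freedom), an adjusted p under 0.1, the median transcript length, and each library left out.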

Additional observations from a re-analysis of the deposited data

How the results depend on the processing

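Over all tested genes 448 were called. The count was 298 with DESeq2, 966 with no filter on low counts, 694 after correction for length and GC content, 823 at an adjusted p under 0.1, and 122 to 767 with 1 library left out. Calls split into 151 higher and 297 lower, against 235 and 205 with upper-quartile scaling and 70 and 228 with DESeq2. Of the 10 genes 1 was called. The count was 2 (T and Sp5) with upper-quartile scaling, with no filter, with that correction or at an adjusted p under 0.1, and 0 to 2 with 1 library left out. DESeq2 gave an adjusted p to 1 of the 10, Axin2 (0.720), so its count for the 10 could not be had. Its unadjusted p was 0.00104 for T and 0.00914 for Sp5. Of the 114 genes of the pathway and lineage lists 10 were called, 6 with DESeq2 (54 had no adjusted p) and 4 to 10 with 1 library left out. T had a log2 fold change of 0.41 to 0.57 over 13 alternatives, and Mixl1 ran from -0.027 (without KBP(KK/RR) replicate 4, a reversed sign) to 0.31 with 1 library left out. No paired analysis was possible because the groups share no replicate numbers. Counts of at most 112 per group (Evx1, Mixl1, Cdx1, Fgf8) limit precision, and the causes of these changes were not tested.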
